A study of Mus musculus with 2 samples.

Results

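The 29 genes described here are interferon-stimulated genes of mouse liver, chosen by symbol from a list of known interferon targets. The choice was made with earlier results of these data known. All 29 were among the 22609 gene symbols counted, and all 29 passed the minimum of 50 reads summed over both libraries that 11411 genes passed. They fall into 16 antiviral genes classically led by type I interferon, 4 transcription factors of the response, 6 GTPases induced by interferon gamma and 3 genes of antigen processing.

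The series asks what deficiency of Lrg1, a secreted glycoprotein with leucine-rich repeats, does to gene expression in liver. The wild-type library came from male C57BL/6 liver (C57BL/6J in the protocol), and the other from male liver labelled Lrg1 knockout, a whole-body knockout. Both groups ate the same high-fat diet (fat gave 45% of its calories) for 16 weeks, starting when the mice were 8 weeks old. There was 1 library per group, with 23311906 reads in genes for wild type and 18738397 for the other, and whether 1 mouse or a pool gave each library is not stated in the labels. No test between genotypes was possible, so every difference compares these libraries.

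Lrg1 had 26958 reads in wild type and 17572 reads in the knockout-labelled library, which therefore is called by its label throughout. The deleted part of the gene is not stated in the labels. Albumin, the main secreted protein of hepatocytes, had 1793429 and 1241979 reads, and all 12 hepatocyte markers examined were measured.

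Type I interferons, made by cells that sense viral nucleic acid, signal through the receptor chains Ifnar1 and Ifnar2 to a complex that holds Stat2 and Irf9. This complex binds the interferon-stimulated response element (ISRE) in the promoters of antiviral genes. Interferon gamma, made by T and NK cells, signals through Ifngr1 and Ifngr2 and acts on promoters with the gamma-activated site (GAS), inducing Irf1, guanylate-binding and immunity-related GTPases, the immunoproteasome and peptide transporters. Many genes respond to both, and hepatocytes, macrophages and endothelial cells of the liver all express the receptors.

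Some but not all promoters of the members hold the core letters of these elements. RefSeq (GRCm38.p6) gave promoter windows, 250 bases before to 50 after an annotated start, for 23 of the 29 genes. The ISRE core was searched as GAAA, 2 free bases and GAAA on either strand (TTTC, 2 free bases and TTTC when read on the other), and the GAS core as TTC, 3 free bases and GAA, which reads the same on both strands. Adjacent ISRE cores can overlap, and a GAS core can overlap an ISRE core. An ISRE core lay in 11 of the 23 genes (47.8%), against 3.99% of the 27025 genes of the promoter table, and a GAS core in 6 (26.1%) against 9.55%. The cores did not divide the groups. ISRE cores lay in 6 of 11 type I genes and in 4 of 8 GTPase and antigen processing genes. GAS cores lay in 3 of the 11 (27.3%) and in 2 of the 8 (25.0%). In the 5 type I promoters below, the last 160 bases before the start are shown with ISRE and GAS cores in capitals. They were chosen because Isg15, Ifit1, Ifit3 and Oas1a were among the members with the lowest ratios, while Bst2, with the same letters, was nearly equal between the libraries.
Isg15, chr4:156200819-156200978, minus strand: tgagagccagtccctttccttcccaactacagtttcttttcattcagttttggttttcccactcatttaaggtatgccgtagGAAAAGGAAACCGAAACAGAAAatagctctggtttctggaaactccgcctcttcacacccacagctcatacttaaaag
Ifit1, chr19:34640729-34640888, plus strand: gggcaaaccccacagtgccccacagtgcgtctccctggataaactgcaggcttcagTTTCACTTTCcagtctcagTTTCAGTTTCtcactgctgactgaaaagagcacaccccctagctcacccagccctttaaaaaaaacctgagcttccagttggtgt
Ifit3, chr19:34583369-34583528, plus strand: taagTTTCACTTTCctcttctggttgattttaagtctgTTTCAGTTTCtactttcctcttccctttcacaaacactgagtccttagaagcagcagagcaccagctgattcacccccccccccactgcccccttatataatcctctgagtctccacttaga
Oas1a, chr5:120907526-120907685, minus strand: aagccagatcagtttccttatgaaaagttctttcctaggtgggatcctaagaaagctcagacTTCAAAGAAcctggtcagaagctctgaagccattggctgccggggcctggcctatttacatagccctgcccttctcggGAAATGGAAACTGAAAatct
Bst2, chr8:71537473-71537632, minus strand: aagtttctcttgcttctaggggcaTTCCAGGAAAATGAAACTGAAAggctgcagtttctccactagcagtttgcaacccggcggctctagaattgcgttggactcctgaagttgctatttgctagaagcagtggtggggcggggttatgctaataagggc

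Isg15 held 3 overlapping ISRE cores between 78 and 57 bases before the start, and Ifit1 and Ifit3 held 2 each on the other strand. Oas1a held 2 ISRE cores within 20 bases of its start and a GAS core farther out, and Bst2 held 2 ISRE cores that overlap a GAS core. Among the GTPases 4 of the 5 with a window held an ISRE core, all within 59 bases of the start. These 4 are shown in the same way beside Ifi47, the 1 of these 5 without either core in its window, which had the highest ratio of all 29 genes.
Gbp2, chr3:142620503-142620662, plus strand: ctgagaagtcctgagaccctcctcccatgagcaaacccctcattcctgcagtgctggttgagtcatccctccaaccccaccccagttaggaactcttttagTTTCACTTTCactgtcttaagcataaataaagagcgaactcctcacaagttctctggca
Gbp3, chr3:142559884-142560043, plus strand: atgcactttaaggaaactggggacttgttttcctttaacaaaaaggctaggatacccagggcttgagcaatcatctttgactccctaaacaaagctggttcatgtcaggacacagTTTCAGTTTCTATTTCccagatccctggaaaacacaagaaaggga
Irgm1, chr11:48871421-48871580, minus strand: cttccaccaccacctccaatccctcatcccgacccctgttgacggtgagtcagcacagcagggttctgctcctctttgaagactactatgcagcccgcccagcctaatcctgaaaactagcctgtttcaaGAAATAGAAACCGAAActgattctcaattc
Igtp, chr11:58199396-58199555, plus strand: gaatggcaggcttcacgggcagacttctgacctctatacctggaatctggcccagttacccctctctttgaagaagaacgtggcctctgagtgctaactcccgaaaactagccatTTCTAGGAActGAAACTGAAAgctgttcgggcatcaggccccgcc
Ifi47, chr11:49076427-49076586, plus strand: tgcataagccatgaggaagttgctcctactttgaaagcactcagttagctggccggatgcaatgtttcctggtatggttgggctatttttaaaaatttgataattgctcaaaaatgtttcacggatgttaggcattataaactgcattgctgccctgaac

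Igtp was the only GTPase of these with a GAS core, 45 to 37 bases before its start. The search describes letters in 1 window per start and says nothing of binding.

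**Figure D1:**
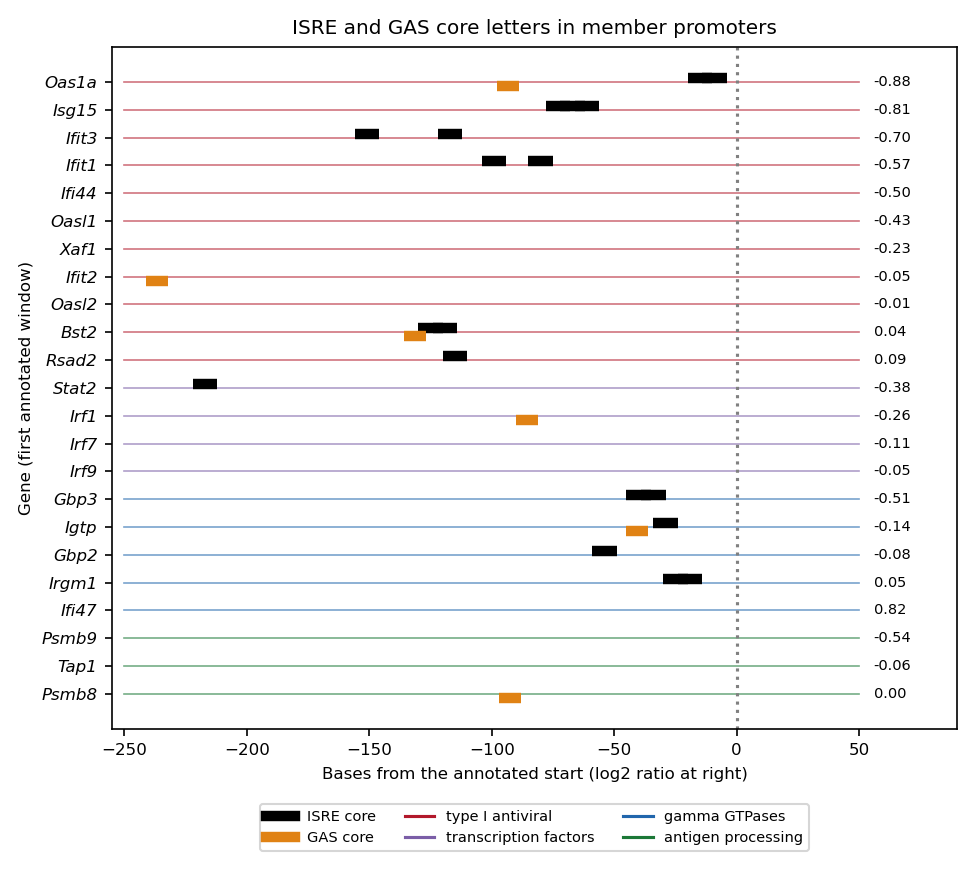
ISRE cores (black) and GAS cores (orange) in the promoter windows of the 23 members with a RefSeq promoter, by bases from the annotated start, with line colour for the group and the log2 ratio of the knockout-labelled to the wild-type library at right. Members with and without an ISRE core are found at low and at near-zero log2 ratios: Isg15, with 3 cores, is at -0.81 and Bst2, with 2, at 0.04.

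As a group, the type I antiviral genes were lower in the knockout-labelled library. The interferon gamma GTPases and antigen processing genes had a median near no difference, with single genes on both sides of it. The median log2 ratio, after adding 0.5 to each count and scaling by the trimmed mean of M-values (TMM), was -0.45 over the 16 type I genes and -0.06 over the 9 GTPases and antigen processing genes. The median of all 11411 measured genes was -0.01. The difference between both group medians was -0.39, while the gamma median turned to 0.020 under total-count scaling. Of the type I genes 14 of 16 lay below 0 (51.6% of all measured genes did), or 11 of 16 under total-count scaling (40.2%). Among them 5 were at least 1.5-fold lower (6.91%), or 4 under total-count scaling (5.5%), where Usp18 fell short at -0.54, and 0 were at least 2-fold lower (2.49%). None of the 29 was at least 2-fold higher (1.71%). Of the other 9 genes 5 lay below 0, 0 were at least 1.5-fold lower and 1 was at least 1.5-fold higher (5.89%). Under total-count scaling 884 of all measured genes were 1.5-fold higher and 628 lower, against 672 and 788 with TMM. Because the members were chosen with earlier results of these data known, these shares describe the members and are no independent test. Over 46 other measured antiviral genes the median was -0.07.

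The genes below are given as reads and as CPM, read counts scaled to a TMM-adjusted library of 1000000 reads, with exact Poisson intervals where shown. Ratios have exact Clopper-Pearson intervals given the sum of both counts. All intervals are at 95% and cover counting error only, since there was 1 library per group. PCR copies of 1 molecule were not told apart, so the intervals can be too narrow even for counting error. Judged by counting alone, 9 of the 16 type I genes had an interval entirely below no difference, against 27.0% of the 10034 measured genes with read sums in the range of the members. Over all 29 genes 14 had such an interval, and 2 had one entirely above no difference (22.7%). Of the 9 GTPases and antigen processing genes 3 had an interval entirely below no difference and 2 one entirely above it. The intervals of the other 4 of these 9 included no difference. A gene with no reads could lie at up to 0.132 CPM in wild type and 0.156 CPM in the other (3 counts).

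Isg15, a ubiquitin-like protein that is conjugated to other proteins, was covered by 475 wild-type reads and by 231 reads of the knockout-labelled library. That is 21.0 CPM (19.1 to 22.9) against 12.0 CPM (10.5 to 13.6), a ratio of 0.571 (0.486 to 0.670). Usp18, the protease that removes Isg15 and also dampens signalling from the type I receptor, had 591 and 326 reads, 26.1 and 16.9 CPM, a log2 ratio of -0.62. The modifier and its protease were thus both lower.

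The Ifit genes encode proteins that bind viral RNA, and their ratios ran from lower to near equal. Ifit1 had 649 wild-type reads and 371 knockout-labelled reads, a log2 ratio of -0.57. Ifit3 had 431 and 226 reads, a log2 ratio of -0.70. Ifit2, their neighbour on chromosome 19, had 150 and 123 reads, 6.62 and 6.38 CPM, and the interval of its ratio (0.753 to 1.231) included no difference. This interval overlapped that of Ifit1 (0.590 to 0.764) and lay above that of Ifit3 (0.522 to 0.725). Ifit3 shares 51.2% of the 50-base windows of its transcripts with Ifit3b, so its count is uncertain.

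The oligoadenylate synthetase family, whose catalytic members make the messenger that activates RNase L, also had ratios from lower to near equal. Oas1a had the lowest log2 ratio of the 29 genes, -0.88, on 76 and 35 reads (3.35 and 1.82 CPM). It shares 57.6% of its 50-base windows with Oas1g and is uncertain. Oas2 had 142 and 75 reads, a log2 ratio of -0.68. Oasl1, a family member that restrains translation of Irf7, had 586 and 371 reads (-0.43), whereas Oasl2 had 150 and 127 reads, 6.62 and 6.59 CPM (-0.01). The interval of the Oasl2 ratio (0.779 to 1.268) included no difference and also overlapped those of Oas1a, Oas2 and Oasl1.

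Other antiviral members spread from lower to equal. Ifi44, an interferon-induced cytosolic protein, had 162 and 97 reads (-0.50), and Zbp1, a sensor of Z-form nucleic acid that can trigger necroptosis, had 258 and 157 (-0.48). Both intervals lay below no difference. Xaf1, a proapoptotic factor, was at -0.23 on 148 and 107 reads, and Ifi27l2a, a small interferon-induced protein, at -0.17 on 155 and 117, with intervals that included no difference. Rtp4, a receptor transporter protein, had 488 and 406 reads (-0.03).

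The remaining pair was as high or higher in the knockout-labelled library. Rsad2, which encodes the antiviral radical SAM enzyme viperin, had 584 and 530 reads, 25.8 and 27.5 CPM, a ratio of 1.066 (0.946 to 1.201). Bst2, the membrane tether that holds budding virions, had 2818 and 2465 reads, 124 and 128 CPM, a ratio of 1.028 (0.973 to 1.085). Rsad2 and Bst2 thus stood at 0.09 and 0.04 on the log2 scale, while Isg15 and Ifit3, which share an ISRE core with them, stood at -0.81 and -0.70.

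**Figure D2:**
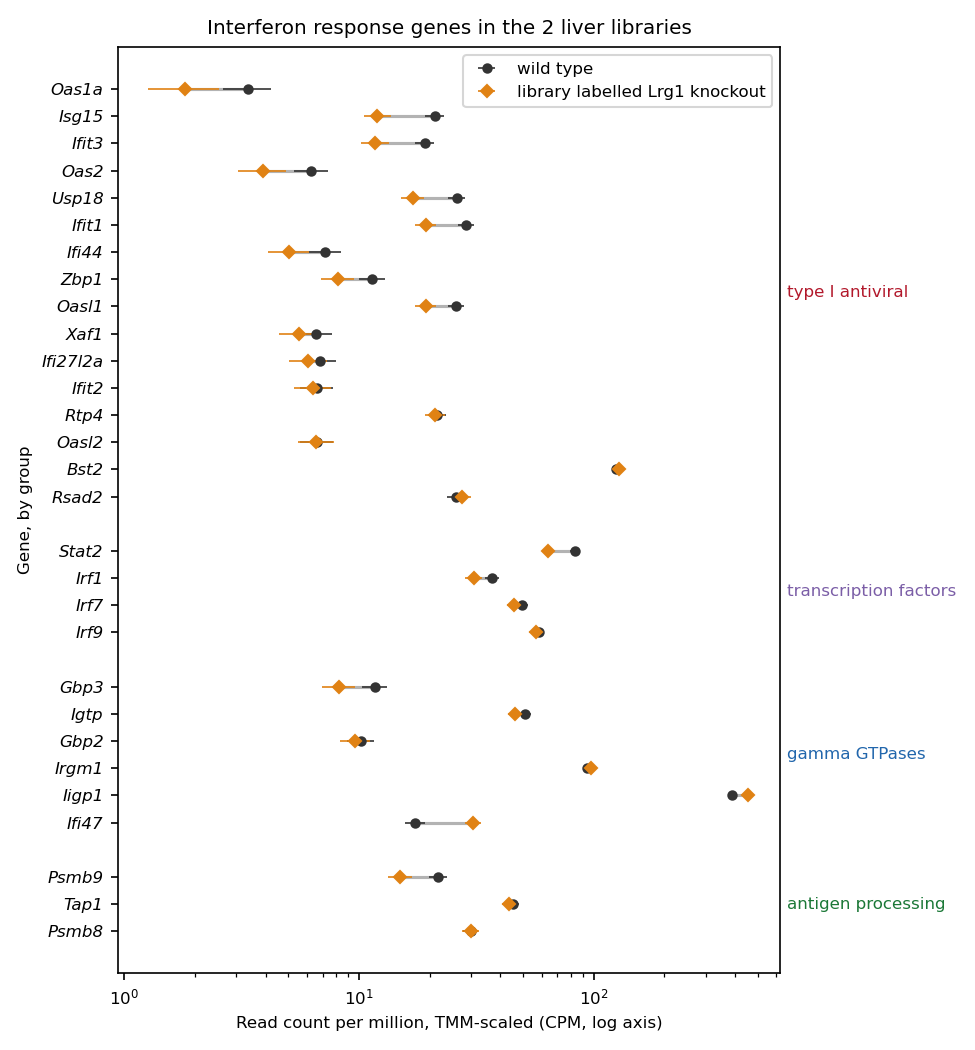
Level of each of the 29 genes in the wild-type library (black circles) and the library labelled Lrg1 knockout (orange diamonds), in TMM-scaled CPM on a log axis, with exact 95% Poisson intervals, grouped by role. For Isg15 the points are at 21.0 and 12.0 CPM and their intervals do not overlap, for Bst2 they lie at 124 and 128 CPM, and Ifi47 is the gene with the widest gap in the other direction, 17.3 and 30.6 CPM.

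All 4 transcription factors of the response had a log2 ratio below 0 (51.6% of all measured genes did), by less than 1.5-fold. Stat2, the subunit specific to the type I complex, had 1879 and 1233 reads, 82.9 and 63.9 CPM, a ratio of 0.771 (0.717 to 0.829). Irf9, the DNA-binding subunit of the same complex, had 1324 and 1090 reads, and its ratio of 0.967 (0.892 to 1.049) included no difference. Irf7, the factor that amplifies interferon alpha transcription, had 1118 and 881 reads (-0.11), also with no difference inside its interval. Irf1, an early target of interferon gamma and an activator of antigen processing genes, had 836 and 593 reads, a log2 ratio of -0.26. Under total-count scaling Irf9 turned to 0.03, so 3 of the 4 lay below 0 (40.2% of all measured genes).

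The 6 GTPases were spread to both sides of no difference, 3 below 0 (51.6% of all measured genes) and 3 above. Under total-count scaling 2 lay below 0 (40.2%). By counting intervals 2 were entirely below no difference (27.0%) and 2 entirely above it (22.7%). Ifi47, an immunity-related GTPase, had 393 wild-type reads and 591 knockout-labelled reads. At 17.3 against 30.6 CPM it was 1.767-fold higher (1.552 to 2.012), the highest ratio of the 29 genes. Iigp1, which attacks the vacuoles of intracellular parasites, was the most abundant member by reads, with 8805 and 8767, or 389 and 455 CPM, a ratio of 1.170 (1.135 to 1.205). Irgm1, a regulator of the other immunity-related GTPases, had 2122 and 1874 reads (0.05).

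Igtp, a second such regulator, was slightly lower, with 1157 and 893 reads and a ratio of 0.907 (0.830 to 0.990). The guanylate-binding proteins, which coat and lyse pathogen vacuoles, differed from each other. Gbp3 had 264 and 158 reads, a log2 ratio of -0.51, and Gbp2 had 230 and 185 reads, -0.08, with an interval that included no difference. Summed CPM of the 6 GTPases was 573 in wild type and 647 in the other one, most of it Iigp1. Igtp overlaps its neighbour Irgm2 over 162 exon bases on the same strand.

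Of the 3 antigen processing genes only Psmb9 was lower beyond counting error. Psmb9, a catalytic subunit that replaces Psmb6 in the immunoproteasome, had 492 and 288 reads, 21.7 and 14.9 CPM, a ratio of 0.688 (0.592 to 0.797). Psmb8, the subunit that replaces Psmb5, had 677 and 577 reads, 29.9 CPM in both libraries. Tap1, which with Tap2 carries peptides into the endoplasmic reticulum, had 1028 and 838 reads (-0.06).

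Psmb9 and Tap1 start back to back on opposite strands of chromosome 17. Their annotated starts lie 225 bases apart, and their promoter windows share 275 of 300 bases, with no ISRE or GAS core in either. Psmb9 and Tap1 nonetheless differed from each other, at -0.54 and -0.06. Their exons overlap over 212 bases on opposite strands, and whether the counting used strand is not stated in the labels.

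**Figure D3:**
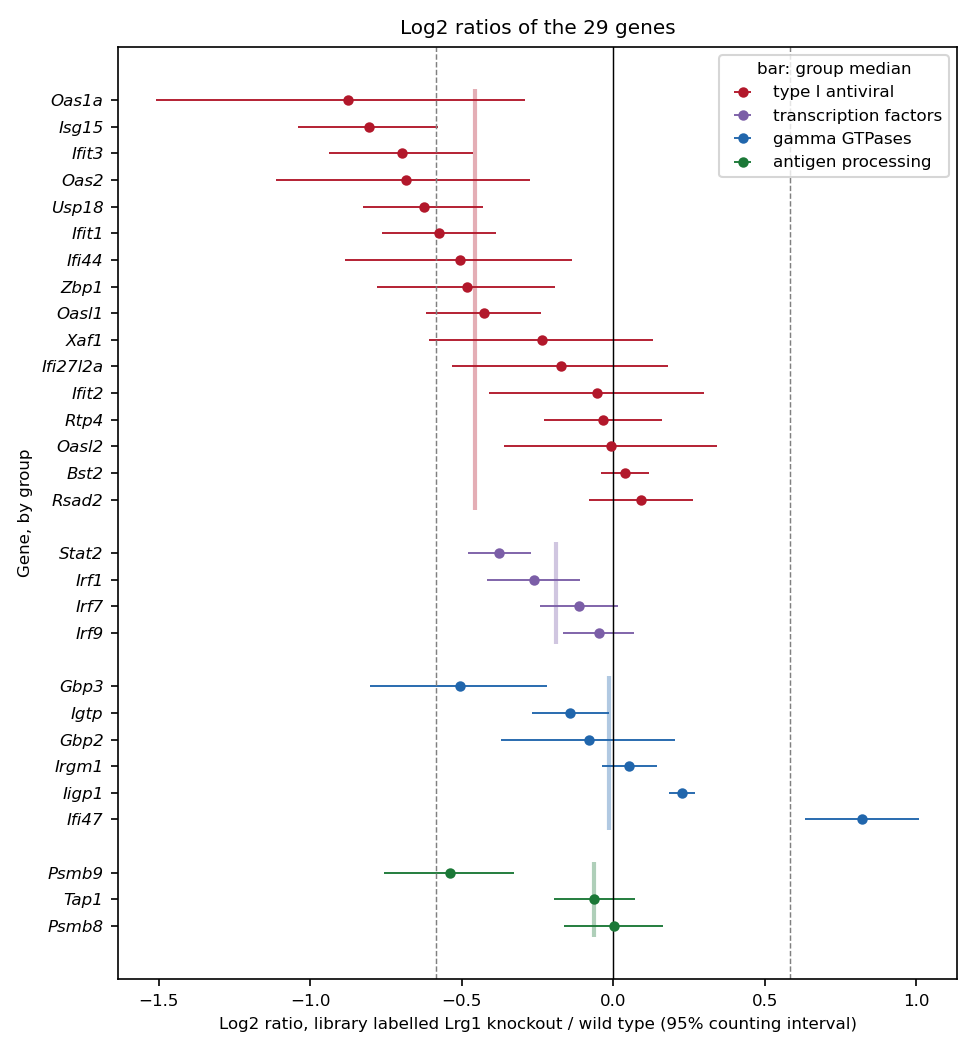
Log2 ratio of the library labelled Lrg1 knockout to wild type for the 29 genes, with exact 95% counting intervals, ordered within each group; the dashed lines mark 1.5-fold and the coloured bars the group medians. The type I genes run from -0.88 for Oas1a to 0.09 for Rsad2, and the GTPases from -0.51 for Gbp3 to 0.82 for Ifi47.

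Levels of different genes were compared per kilobase of annotated exon (GENCODE M21). Bst2 stood first in both libraries, at 138 and 142 CPM per kilobase, and Iigp1 stood next to it at 66.8 and 78.1. Isg15 was at 27.7 CPM per kilobase in wild type (place 3 in order) and at 15.8 in the knockout-labelled library (place 5). Oas1a, Oas2, Ifit2, Ifi44, Xaf1 and Oasl2 were the lowest members in both libraries, at 0.82 to 1.78 CPM per kilobase. In each library 20 of the 29 members lay above the median of the 10364 measured genes with a length, 4.07 and 4.01 CPM per kilobase. Ifi47 moved from place 18 to place 7, and Usp18 from 14 to 19.

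Transcripts of the interferons themselves were at or near the detection limit. Of 19 interferon genes in the files 18 had 0 reads in both libraries, all type I and type III genes among them. Alignments that were not unique stay outside these counts, and the shared windows of interferon genes were not examined. Their 0 reads therefore do not show absence. Ifng, interferon gamma, had 1 wild-type read and 8 knockout-labelled reads, a ratio of 9.40 with a counting interval from 1.26 to 417. This is too few reads to place the difference.

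The receptors were close to equal. Ifnar1 had 55.8 and 51.4 CPM, and Ifnar2 had 92.4 and 87.8 CPM. Ifngr1 had 23.9 and 21.0 CPM, a log2 ratio of -0.19, and Ifngr2 had 30.6 and 32.7 CPM. Of 5 measured receptor genes 0 differed by 1.5-fold (6.91% of all measured genes were that much lower and 5.89% higher).

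Among 7 measured kinases and inhibitors of the pathway, 4 were below 0 (51.6% of all measured genes). None differed by 1.5-fold (6.91% of all were that much lower and 5.89% higher). Their median of -0.02 turned to 0.06 under total-count scaling. Ptpn6, a phosphatase of blood cells that dampens cytokine receptors, was at -0.56 on 869 and 503 reads. Pias1, an inhibitor of interferon signalling, was at 0.23 and Jak2, a kinase of the interferon gamma receptor, at 0.19 on 425 and 412 reads.

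Nucleic acid sensors and their adaptors went both ways. Of 18 measured genes 12 lay below 0 (51.6% of all measured genes), or 9 under total-count scaling (40.2%). With TMM 3 were at least 1.5-fold lower (6.91%) and 2 at least 1.5-fold higher (5.89%). Under total-count scaling 3 were lower (5.5%) and 3 higher (884 of all 11411 measured genes). Ticam1, the adaptor of Tlr3, had 703 and 322 reads (-0.89), and Tlr7, the endosomal receptor for single-stranded RNA, had 94 and 46 (-0.79). Irf5, a factor that acts downstream of Tlr7, had 182 and 272 reads (0.81).

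Antiviral genes outside the 16 did not show the same median. Over 46 measured genes it was -0.07, turning to 0.01 under total-count scaling. Of these genes 30 lay below 0 (51.6% of all measured genes), or 21 under total-count scaling (40.2%). With TMM 2 were at least 1.5-fold lower (6.91%) and 2 at least 1.5-fold higher (5.89%). Mx1, an interferon-induced GTPase, had 78 and 40 reads (-0.72). Apobec3, a cytidine deaminase, had 35 and 51 reads (0.77), and Tor3a had 447 and 625 (0.72).

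Other interferon gamma GTPases had a median of -0.11 over 11 measured genes. Of these 7 lay below 0 (51.6% of all measured genes), or 6 under total-count scaling (40.2%). Gbp11 was the only gene of these at least 2-fold lower, with 581 and 199 reads (-1.31), and Gbp10 had 329 and 144 reads (-0.96). Gbp10 shares 84.1% of its 50-base windows with other genes, chiefly Gbp6, and is uncertain. Irgm2, the neighbour of Igtp, had 1273 and 1624 reads (0.58), so that the highest members of both GTPase lists, Ifi47 and Irgm2, were immunity-related GTPases.

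Other antigen processing genes had a median of -0.09 over 12 genes. Of these 9 lay below 0 (51.6% of all measured genes), or 6 under total-count scaling (40.2%). Under total-count scaling 0 were at least 1.5-fold lower (5.5%), and with TMM 1 was (6.91%). That gene was Calr, a chaperone of the peptide loading complex and of the endoplasmic reticulum in general, with 1022 and 655 CPM (-0.64). Pdia3 of the same complex was at -0.55, and Psme2, a subunit of the proteasome activator, at 0.36. Of the constitutive subunits that the inducible ones replace, Psmb5 was at -0.14 and Psmb6 at 0.13, and Psmb7 had 108 CPM in both libraries.

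The remaining interferon gamma targets did not follow the gamma GTPases. Their median was -0.37 over 11 measured genes, or -0.29 under total-count scaling. Of these 10 lay below 0 (51.6% of all measured genes), or 9 under total-count scaling (40.2%). With TMM 2 were at least 1.5-fold lower (6.91%). Cxcl11, a chemokine for T cells, had 50 and 26 reads (-0.70), Wars, the tryptophanyl-tRNA synthetase, 608 and 323 (-0.68), and Fcgr1, a macrophage receptor for antibodies, 110 and 63 (-0.57). The near-zero median of the GTPase and antigen processing members was therefore not seen across all interferon gamma targets.

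**Figure D4:**
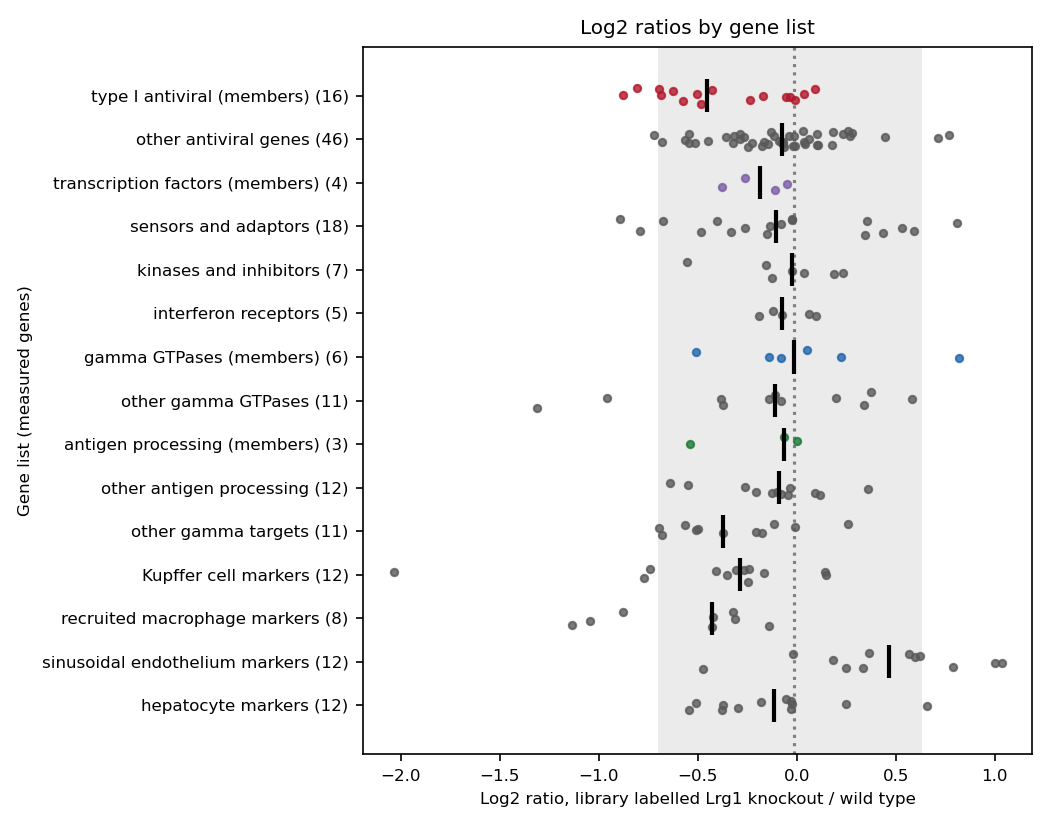
Log2 ratios of all measured genes of each list, with the list median as a black bar; coloured points are the members, the grey band runs from the 5th to the 95th percentile of all 11411 measured genes (-0.70 to 0.63) and the dotted line is their median. The type I members have a median of -0.45 and other antiviral genes one of -0.07; recruited macrophage markers lie below 0 and most sinusoidal endothelium markers above it.

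Macrophage markers were lower beside the type I genes. All 12 Kupffer cell markers were measured, and 10 of 12 were below 0 (51.6% of all measured genes), also under total-count scaling (40.2%). Their summed level was 677 CPM in wild type and 552 CPM in the knockout-labelled library. Among them Marco, a scavenger receptor, was at -2.04 and Timd4, a receptor for dying cells, at -0.77. Emr1, the F4/80 antigen now called Adgre1, was at -0.74. Clec4f and Cd163 lay on the other side of 0, at 0.15 and 0.14. Of recruited macrophage markers 8 of 10 were measured and 8 of 8 were below 0 (51.6% of all measured genes), also under total-count scaling (40.2%). Their sums were 141 and 80.3 CPM. Gpnmb, a glycoprotein of lipid-laden macrophages, was at -1.14, Lyz2, a lysozyme, at -1.05 and the integrin Itgam at -0.88. The part of macrophages in the ratios of the members was not tested, and in bulk tissue fewer cells of a type and less RNA per cell cannot be told apart.

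Most markers of sinusoidal endothelium were higher, and 10 of 12 lay above 0 (5521 of all 11411 measured genes did). Their sums were 294 and 423 CPM. Lyve1 went the other way, with 392 and 240 reads, a ratio of 0.719 (0.610 to 0.847). Gpr182 was nearly equal, with 366 and 308 reads (-0.02). Dnase1l3, a secreted nuclease, was at 1.04 and the antibody receptor Fcgr2b at 0.79, and the VEGF receptor Kdr had 22.8 and 45.7 CPM. Hepatocyte markers had a median of -0.12. Of these 10 of 12 lay below 0 (51.6% of all measured genes), or 6 of 12 under total-count scaling (40.2%). Tat, an enzyme of tyrosine breakdown, was at 0.66, the urea cycle enzyme Cps1 at -0.54 and the transcription factor Hnf4a at -0.51. T and NK cell markers, of cells that make interferon gamma, were near the detection limit, with 14 genes summing to 6.62 and 9.02 CPM. Cd3e had 5 and 7 reads, and 0 of the 14 were at 0. The intervals of the 3 measured ones, Ccl5 (0.47), Il2rb (0.39) and Cd4 (-0.17), included no difference. Among plasmacytoid dendritic cell markers, of cells that make type I interferon, Siglech had 13 and 13 reads, and the list sums of 14.9 and 21.0 CPM came mostly from Tcf4, which other cells also express (0.51). B cell markers summed to 2.12 and 3.16 CPM, with Cd79b at -0.16. Neutrophil markers summed to 7.11 and 8.14 CPM, with S100a9 at 0.41, Csf3r at 0.17 and S100a8 at 0.07. The part of these cells was not tested either.

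**Figure D5:**
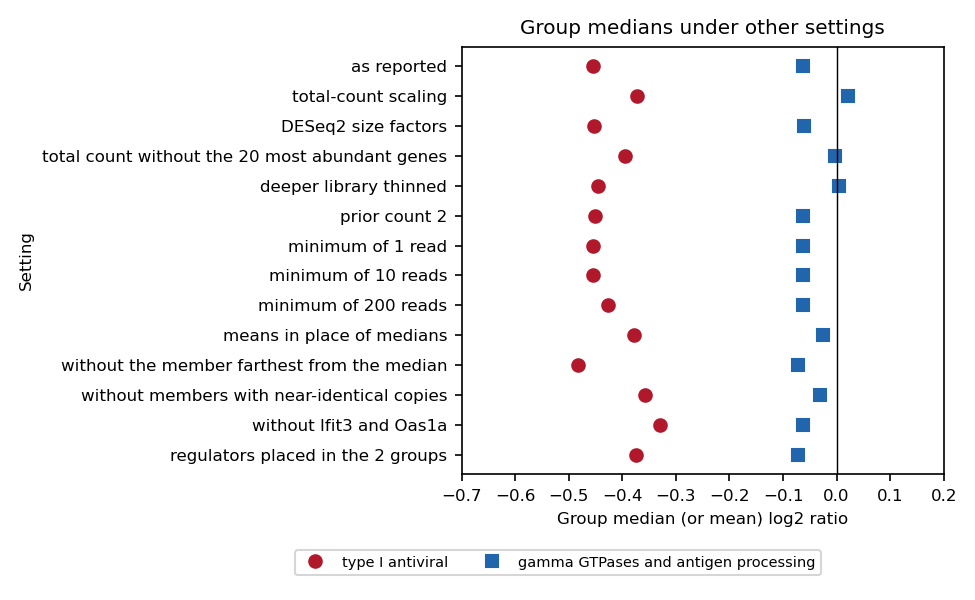
Median log2 ratio (or mean, where named) of the 16 type I antiviral genes (red circles) and the 9 interferon gamma GTPase and antigen processing genes (blue squares) as reported and under 13 other settings. The type I value stays between -0.48 and -0.33, and the other runs from -0.07 to 0.02.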

How the data were processed

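Liver poly(A) RNA (about 500 ng of total RNA) was sequenced with a stranded kit as single-end reads of 50 bases, per the labels' protocols. Per the submitters' processing notes, bcl2fastq, TopHat2, HTSeq and build mm9 were used; versions, annotation and strand setting: not given in the sources. As deposited, the values are raw counts of reads for each gene symbol, made by the authors. Lines naming no gene were left out of library sizes (14.0% and 14.4% of uniquely aligned reads lay outside genes).

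Counts were scaled by TMM (edgeR 4.0.16, R 4.3.3) in Python 3.11.15 with scipy 1.17.1. Log2 ratios used a prior count of 0.5, and genes with at least 50 summed reads counted as measured. With 1 library per group, counts and medians stand beside those of all measured genes, and no p-value is given. In simulated libraries without biological spread, 97.0% of intervals over 200 genes with set folds covered the true fold, and 1.07% of 11208 unchanged genes passed 1.5-fold. That describes counting error only.

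Of the genes listed, 6 are not used here. A further gene of the pathway is not reported. All members, Lrg1 and the 3 measured genes farthest from 0 in each other list were named. Ifng, Ifnar2, Alb, Cd3e and Siglech were named in addition for their role. Clec4f, Cd163, Lyve1 and Gpr182 were named as the markers on the other side of 0 in their lists. Members and lists were chosen with earlier results of these data known. Promoter sequences come from RefSeq on GRCm38.p6. Exon lengths and shared 50-base windows come from GENCODE M21, and no coordinate of the mm9 counts is used. Alternatives concerned scaling (DESeq2 1.42.0 size factors, total count, and total count leaving out the 20 most abundant genes), thinning, prior, minimum reads, threshold and makeup of the groups.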

Additional observations from a re-analysis of the deposited data

Results flagged for a closer look

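Alignments that were not unique stay outside the gene counts. They made up 50.3% of counted lines for wild type and 58.0% for the knockout-labelled library (27554856 and 30368128 lines), a large signal that no comparison here uses. Among the gamma GTPases, Tgtp1 had 0 reads in both libraries and Tgtp2 16 and 13; Tgtp1 shares 81.2% of its 50-base windows with other genes, chiefly Tgtp2, so the level of this pair is not shown by the counts. Gvin1, with 99.2% shared, also had 0 reads in both.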

How the results depend on the processing

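The median of the 9 GTPase and antigen processing genes changed sign under 2 settings, to 0.020 with total-count scaling and to 0.0054 with the deeper library thinned. Under total count the median of all measured genes went from -0.01 to 0.07, and with thinning it was -0.01. At a 2-fold threshold the number of members lower was 0 in place of 5, by construction. It was 4 under both total-count scalings, without Usp18, and 4 at a minimum of 200 reads, which leaves out Oas1a. The type I median stayed between -0.48 and -0.33, and the difference between both group medians between -0.45 and -0.27. The values nearest to 0 came without Ifit3 and Oas1a, a setting added after the data were seen. The number of members below 0 ranged from 17 (total count) to 23. Of 29 members 23 kept their sign under the 8 settings run for single genes (7 for Oas1a); Gbp2, Ifit2, Irf9, Oasl2, Rtp4 and Tap1 did not, and all 6 had intervals that included no difference. No library could be left out, as each group had 1. No paired analysis was possible because each group had 1 library. Depth limits Oas1a most, with 111 summed reads, and interferon transcripts, which lie at or near the limit of 3 counts.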

Other observations

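Among measured genes with a RefSeq promoter, the 310 that held an ISRE core had a median log2 ratio of -0.04 and 54.8% of them lay below 0, against -0.01 and 52.0% of the 7944 without it. For the 708 with a GAS core the values were -0.02 and 53.7%. Among the type I members with a window, the 6 with an ISRE core had a median of -0.64 and the 5 without it one of -0.23, while 66.7% of the former and 100% of the latter lay below 0. The other antiviral genes went the other way, with a median of -0.07 over 14 genes with the core and -0.12 over 22 without it. Isg15, Ifit1, Ifit3 and Oas1a on one side and Bst2 and Rsad2 on the other all held the core.

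Within the Gbp family, Gbp11 (-1.31), Gbp10 (-0.96), Gbp3 (-0.51) and Gbp9 (-0.39) were lower in the knockout-labelled library. Gbp5 (0.38) and Gbp8 (0.34) were above 0 on 57 and 63 reads and on 51 and 55 reads, with intervals that included no difference. The intervals of Gbp1 (-0.37), Gbp4 (-0.14), Gbp7 (-0.11), Gbp2 (-0.08) and Gbp6 (-0.08) included no difference as well. Gbp1, Gbp4, Gbp5, Gbp6, Gbp7, Gbp8 and Gbp9 were named after their values were seen.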
